A study of Arabidopsis thaliana with 18 samples.

Results

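The comparison described here is that of wild-type Arabidopsis thaliana leaves 6 h after wounding with unwounded wild-type leaves. Its members were taken from the sample titles: the 3 arrays of Col-0 leaves 6 h after wounding and the 3 arrays of unwounded Col-0 leaves, 6 of the 18 arrays of the series. All 22746 probe sets other than the manufacturer's controls were compared. The series sets the wild type beside plants that over-express the potato zinc finger gene StZFP2, and it holds 6 groups of 3 arrays, lettered A to C. Groups were Col-0 or over-expressing plants, whose labels are read here as a pool of lines (OEEV47-1 with OEEV47-2). Each was unwounded, 1 h after wounding or 6 h after wounding. The labels give leaf as the tissue of every sample. They state neither plant age, nor the kind of wound, nor the hour of harvest, and they do not say whether the replicates came from separate plants. The p-values therefore reflect only how far these arrays differ within a group, and that spread may be technical. No group was left unwounded for 6 h, so that wounding and the 6 h that passed between the groups cannot be told apart anywhere below. Expression was read as MAS5 signal, the brightness of a probe set on an Affymetrix ATH1 array on a linear scale that the authors had scaled to a common mean per array. Folds are between means of log2 signal, with the standard error (SE) of a limma fit to the 9 Col-0 arrays, and a gene was called where its Benjamini-Hochberg adjusted p was below 0.05. Changes given with an error are differences in log2 signal, 6 h minus unwounded unless stated, ± SE with n = 3 arrays a group, and values given in threes are signals on arrays A, B and C. Signals are compared between arrays for 1 probe set, not between genes.

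A wounded leaf makes jasmonate from chloroplast lipids. Jasmonate is joined to isoleucine, and the conjugate leads to degradation of the JAZ repressors, which frees MYC transcription factors to switch on defence genes and, as feedback, the JAZ genes themselves and enzymes that inactivate the hormone. Independently of wounding, leaves carry a circadian clock of genes that peak in turn from dawn to dusk, and they make starch by day and break it down at night.

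Leaves 6 h after wounding had lower levels of the morning clock genes LHY and CCA1, of 9 of 10 genes for JAZ repressors and of 12 of 17 enzymes that lead to lignin. They had higher levels of 10 of 15 genes in a list of evening clock genes and clock outputs. Of 17 genes of starch breakdown 13 were higher and 3 lower, among these the beta-amylase BAM3. Among all 22591 genes with a locus, read through 1 probe set each, 9.01% were called higher and 8.02% lower, with a median log2 change of 0.01.

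Of the 22746 probe sets, 3851 (16.9%) were called 6 h after wounding against unwounded leaves, 2037 higher (8.96%) and 1814 lower (7.98%). Among those called, 896 were at least 2-fold higher and 859 at least 2-fold lower, while 86 and 60 differed by at least 8-fold. The share of higher calls was 52.9% on the deposited scale, 49.1% after quantile normalization and 43.2% after subtraction of each array's median. At an unadjusted p below 0.05, 3329 probe sets were higher and 2998 lower. Groups of 3 arrays did not overlap for 7216 probe sets (31.7%). Bright probe sets were called more often than dim ones. In the dimmest of 5 equal bins by mean signal 0.747% were called higher and 0.857% lower, and in the brightest bin 15.2% and 20.1%. A fit to all 18 arrays of the series, which share 1 estimate of the spread, called 1017 higher and 795 lower. Log2 changes between the Col-0 groups are the same in that fit. It differs in the spread, to which the over-expressor arrays also contribute, and why their spread differs was not tested.

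**Figure D1:**
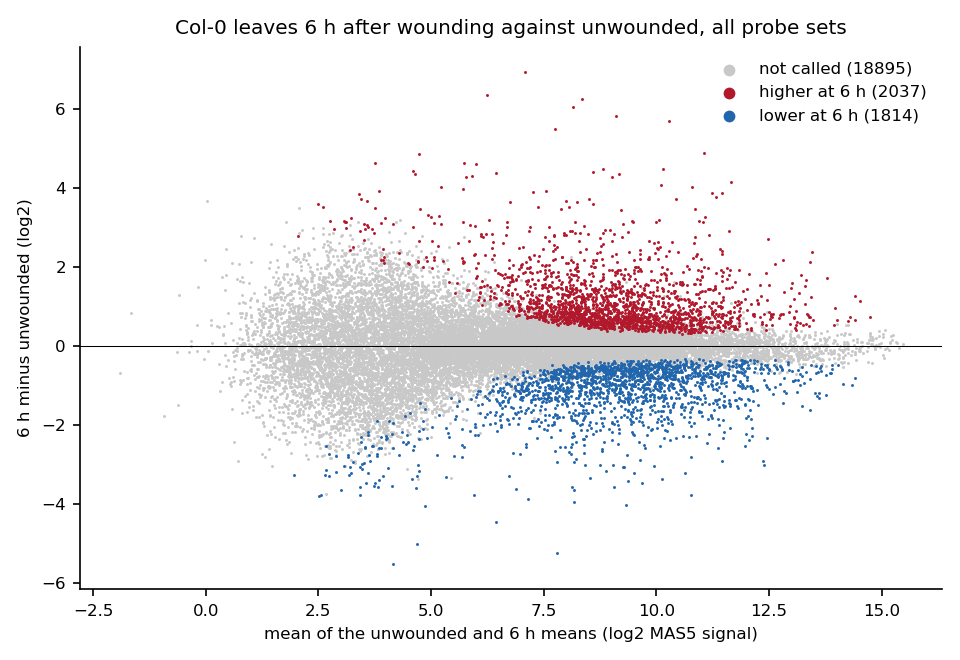
Change of each probe set in wild-type leaves, 6 h minus unwounded (log2, vertical axis) by the mean of both group means (log2 MAS5 signal, horizontal axis). The 2037 called higher are red, the 1814 called lower are blue and the 18895 not called are grey, and calls thin out to the left, where signals are dim.

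The leaves 6 h after wounding were further from those 1 h after wounding than from unwounded leaves by number of calls. Against 1 h, 5874 probe sets (25.8%) were called, 3464 higher (15.2%) and 2410 lower (10.6%), and 1 h against unwounded leaves gave 699 (3.07%), 471 higher (2.07%) and 228 lower (1%). The share of higher calls in the 6 h against 1 h comparison was 59.0% as deposited, 51.8% after quantile normalization and 40.6% after median subtraction. At 1 h it was 67.4%, 75.5% and 86.0%. The 3 comparisons share arrays, so their values are given side by side and not correlated. Among the 2037 probe sets higher at 6 h than unwounded, 1841 were also called higher than at 1 h, 4 lower and 192 neither. Among the 1814 lower, 1513 were also called lower than at 1 h, 1 higher and 300 neither.

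The tissue label was checked against marker genes. All 6 markers of mesophyll and photosynthesis were bright and none was called. RBCS1A, the small subunit of Rubisco, read 42485, 48200 and 39175 in arrays A, B and C of unwounded leaves and 42757, 42140 and 40237 at 6 h, with probes that other genes share. Rubisco activase RCA read 35711, 36270 and 34290 unwounded and 34009, 34251 and 32079 at 6 h. Summed signals of the 6 mesophyll markers ran from 175980 to 196820 in unwounded leaves and from 176930 to 181660 at 6 h, so the groups overlapped. All 5 floral organ identity genes and all 4 seed genes were dim, which here means under the 40th percentile of every array of the group, both unwounded and at 6 h. Where only some arrays of a group lay under it, their number is given, and no size of change where they were 2 of the 3. Of 5 root genes 3 were dim in both groups. The exceptions were SCR, a factor of the inner tissues of root and leaf that was lower at 6 h (log2 -0.67 ± 0.20, adjusted p = 0.034, lost without any 1 of the 6 h arrays or of the unwounded arrays B and C), and PYK10, a beta-glucosidase abundant in roots. PYK10 signal was 159, 17.6 and 48.5 in unwounded leaves and 1112, 158 and 404 at 6 h, with unwounded arrays B and C under the 40th percentile. The groups of PYK10 overlapped between unwounded array A and the 6 h array B, and the gene lost its call without either the unwounded array B or the 6 h array A. Summed root marker signal was 714.2 to 868.6 in unwounded leaves and 616.4 to 1575 at 6 h, a spread set by PYK10, and its part in other results was not tested.

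Summed signals of guard cell and of epidermal markers did not overlap between the groups, and their part in other results was not tested. Of 6 guard cell genes KAT1, an inward potassium channel, rose (log2 1.26 ± 0.19, adjusted p = 6.4e-04), and summed guard cell signal was 1072 to 1311 unwounded and 1549 to 1743 at 6 h. No other guard cell gene was called. The median log2 change of the 6 was 0.14, with a range of -1.43 to 1.26, and 2 were dim in both groups. Of 6 epidermal and trichome genes FDH, an enzyme of cuticle formation, fell (log2 -0.96 ± 0.19, adjusted p = 0.0039). The summed epidermal signal was 2446 to 2810 unwounded and 1594 to 2099 at 6 h. No other epidermal gene was called. The median log2 change of these 6 was -0.01, with a range of -1.21 to 1.04, and 3 were dim in both groups. Of 7 vascular genes the sucrose exporter SWEET12 rose (log2 1.28 ± 0.28, adjusted p = 0.007), and the summed signals of the groups overlapped. In bulk leaf RNA a lower share of a cell type and less RNA per cell cannot be told apart. Of 6 senescence genes, the factors WRKY53 and NAP were lower (log2 -1.35 ± 0.17 and -1.10 ± 0.20) and none was higher, and SAG12, a protease gene that defines late senescence, was dim in all 3 Col-0 groups.

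Arrays within a group correlated at r = 0.934 to 0.941 at 6 h and 0.924 to 0.938 in unwounded leaves over all probe sets, and between these groups at 0.908 to 0.922. The ratio of the 3′ to the 5′ probe set of GAPDH, which rises with RNA degradation, was 1.21 to 1.73 in unwounded leaves and 1.34 to 1.61 at 6 h. For actin it was 5.54 to 10.4 and 4.12 to 6.97. Both ranges overlapped between unwounded leaves and leaves at 6 h. At 1 h the ratio was 1.61 to 1.84 for GAPDH and 7.28 to 10.7 for actin. The actin ratios at 1 h all lay above those at 6 h, and the GAPDH ranges of these groups met only at their ends. The part of RNA quality in the 6 h against 1 h results was not tested. The unwounded arrays differed among themselves along gene groups that are named below. Unwounded array A was the highest of the 3 for 40.01% of all probe sets but for 14 of 16 sugar starvation genes. Unwounded array C was highest for 30.7% of all probe sets but for 14 of 17 cold and dehydration genes, 9 of 10 JAZ genes and 11 of 12 genes of jasmonate synthesis.

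Lists of genes by function were read from the same fit, with 1 probe set per gene, beside the shares of all genes called (9.01% higher and 8.02% lower). Dim probe sets were seldom called and most lists held few dim genes, so these shares are a low standard for them. In the second brightest of the 5 bins by mean signal 16.5% were called higher and 12.3% lower, and in the brightest 15.2% and 20.1%. Against 1 h, 15.3% of all genes were called higher and 10.6% lower, and at 1 h against unwounded leaves 2.08% and 1.01%.

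**Figure D2:**
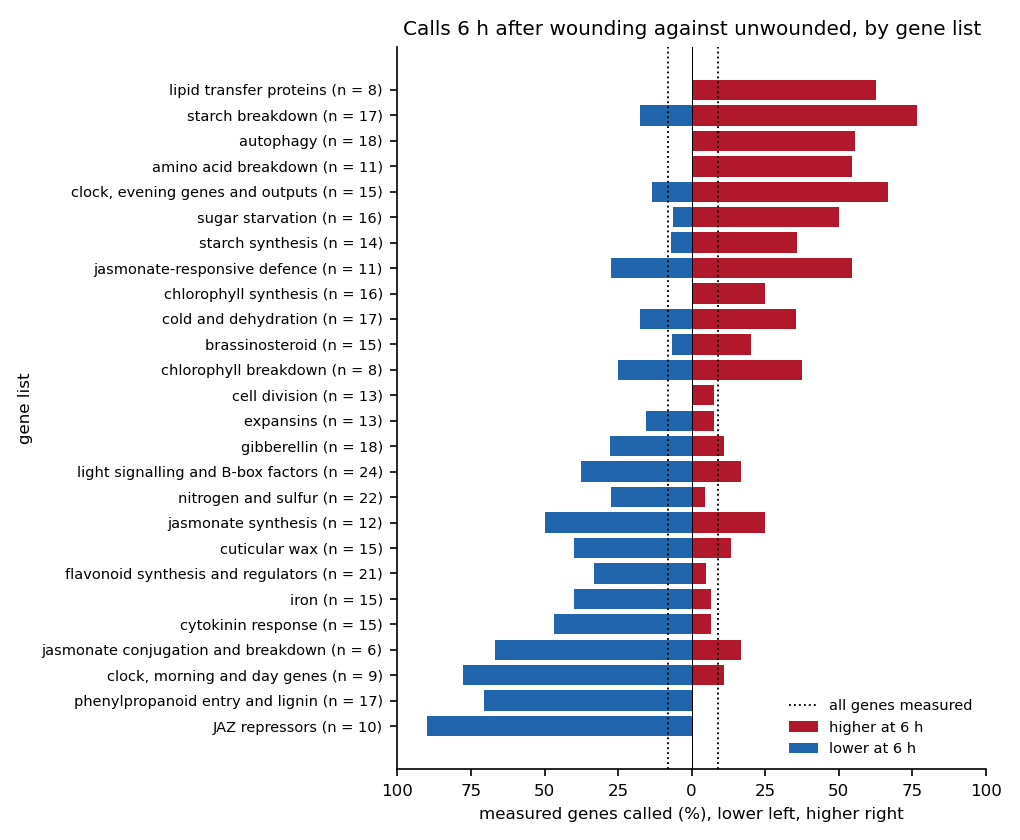
Share of the measured genes of each list called higher (red, to the right) or lower (blue, to the left) in the wild type at 6 h, in percent, with dotted lines at the shares of all genes measured (9.01% and 8.02%). Starch breakdown, evening clock genes with outputs, and autophagy lie far to the right, and the JAZ repressors, the morning clock genes and the phenylpropanoid enzymes far to the left.

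The clock genes split by phase. Of 9 genes of the morning and day 7 fell and 1 rose, with a median log2 change of -1.45, and of 15 evening genes and outputs 10 rose and 2 fell, with a median of 1.90. LHY, a MYB repressor at the core of the morning loop, read 5903, 7025 and 6294 in unwounded leaves, 5322, 7514 and 7632 at 1 h and 604, 353 and 487 at 6 h. All 3 arrays at 6 h lay far below the other 6, which overlapped, a 13.6-fold change (log2 -3.77 ± 0.19, adjusted p = 2.1e-07). Its partner CCA1 fell from 3499.6, 5363 and 4158 to 1358, 858 and 1461 (log2 -1.84 ± 0.20, adjusted p = 6.2e-05). RVE8, a related activator of evening genes, fell by 2.01 ± 0.23 on the log2 scale, with 1 of the 3 arrays at 6 h under the 40th percentile, and its coactivators LNK1 and LNK2 changed by -1.15 ± 0.17 and -1.77 ± 0.14. RVE1, a relative of CCA1 that acts on auxin synthesis, changed by -1.45 ± 0.17. ASG4, another MYB-like factor of the same kind that is not in the list, read 237, 711 and 971 unwounded and 33.0, 36.6 and 42.5 at 6 h. At 6 h its signals were dim, so only a bound can be given, computed from the 40th percentile of those arrays: ASG4 was at least 6.85-fold lower (adjusted p = 3.2e-05). The same form of bound is used for every dim group below.

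The pseudo-response regulators are repressors that act one after another through the day, and the later ones rose. PRR9, the earliest of them, was not called, with 411, 733 and 909.6 unwounded and 681, 642 and 764 at 6 h on probes shared with other genes. PRR7 rose from 314, 335 and 231 to 933, 1349 and 1065 (log2 1.93 ± 0.18, adjusted p = 1.9e-05). PRR5 read 5.80, 12.8 and 7.76 in unwounded leaves, 16.5, 25.1 and 5.06 at 1 h and 732, 780.0 and 552 at 6 h. PRR5 was dim unwounded and at 1 h and bright on all 3 arrays at 6 h, at least 8.77-fold higher (adjusted p = 1.6e-05). PRR3 read 64.1, 15.2 and 28.7 unwounded and 411, 351 and 377 at 6 h, at least 4.88-fold higher (adjusted p = 1.9e-04). TOC1, the last of the series, rose from 83.1, 95.1 and 105 to 263, 285 and 192 (log2 1.37 ± 0.27, adjusted p = 0.0033), and the 1 h arrays, at 109.6, 205 and 142, overlapped those at 6 h.

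Of the evening complex, which represses growth and morning genes, ELF4 read 39.7, 61.1 and 71.2 unwounded and 441, 248 and 285 at 6 h, at least 4.05-fold higher (adjusted p = 9.4e-04). ELF3 was at least 2.89-fold higher (adjusted p = 0.0021) and LUX, on shared probes, at least 1.47-fold (adjusted p = 1.2e-04). Unwounded leaves were dim for all 3 subunits. GI, which couples the clock to flowering, rose from 189, 319 and 396 to 1158, 1134 and 948 (log2 1.90 ± 0.24, adjusted p = 1.7e-04). GRP7, an RNA-binding protein under clock control, rose from 488, 755 and 879 to 11470, 10166 and 7246, a log2 change of 3.78 ± 0.22, adjusted p = 5.7e-07, and its relative GRP8 by 1.33 ± 0.11. The groups of neither gene overlapped. CDF1 and CDF2, morning repressors of flowering placed in this list as targets of evening proteins, changed by -0.82 ± 0.18 and -1.15 ± 0.22. With dim genes at their bounds the median of the evening list was 1.33. The fit to all 18 arrays left 1 of the 15 evening genes called higher and 6 of the 9 morning genes called lower.

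**Figure D3:**
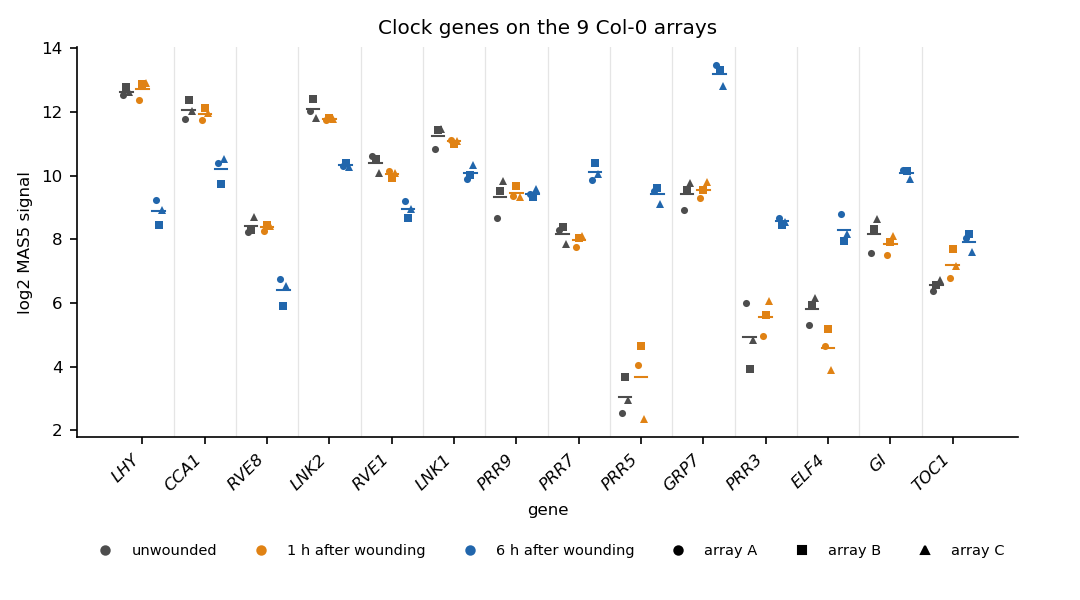
Signals of 14 clock genes (log2 MAS5 signal, vertical axis) on the 3 unwounded (grey), 3 1 h (orange) and 3 6 h (blue) Col-0 arrays, with the letter of the array as the symbol and group means as bars. At 6 h LHY and CCA1 lie below, and PRR7, PRR5, GRP7, PRR3, ELF4, GI and TOC1 above, the unwounded arrays, while PRR9 does not separate.

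Genes of light signalling moved in both directions, 4 higher and 9 lower of 24. ELIP2, a light stress protein of the thylakoid, fell from 812, 1188 and 934 to 87.6, 90.9 and 68.1 (log2 -3.57 ± 0.25, adjusted p = 2.1e-06, with 1 of the 3 arrays at 6 h under the 40th percentile), and ELIP1 by 2.19 ± 0.22. BBX31, a small B-box protein, fell by 3.42 ± 0.37, and RUP2, a repressor of ultraviolet-B signalling, by 1.93 ± 0.17. COL1, a relative of the flowering regulator CONSTANS, changed by -1.80 ± 0.20. BBX22, a B-box promoter of light responses, rose from 33.6, 75.3 and 44.3 to 821, 681 and 706 and was at least 9.45-fold higher (adjusted p = 4.7e-05). The blue light receptors CRY1 and CRY2 and the far-red receptor PHYA rose by 0.82 ± 0.15, 1.36 ± 0.13 and 0.84 ± 0.18, whereas PHYB was not called (-0.26, adjusted p = 0.45).

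Of 17 genes of starch breakdown 13 rose, 3 fell and 1 was not called, and the median log2 change was 1.59. Breakdown begins with phosphate groups that loosen the granule. GWD1, the glucan water dikinase that adds them, read 589, 1088 and 1023 in unwounded leaves, 633, 642 and 708 at 1 h and 6330.2, 6042 and 5896 at 6 h (log2 2.81 ± 0.19, adjusted p = 1.3e-06 against unwounded). All 3 arrays at 6 h lay above all 6 others. PWD, the second dikinase, rose by 1.46 ± 0.12. The phosphatases that take the groups off again rose too, SEX4 by 2.25 ± 0.24 and LSF2 by 0.90 ± 0.15, as did their relative LSF1 by 0.70 ± 0.16.

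Of the amylases and debranching enzymes, AMY3, ISA3 and BAM5 rose, LDA was not called, and 3 genes of the beta-amylase family fell. AMY3, a plastid alpha-amylase, rose from 306, 384 and 348 to 3615, 2609 and 2955 (log2 3.14 ± 0.15, adjusted p = 1.8e-07). The debranching enzyme ISA3 rose to 761, 831 and 742 (log2 2.66 ± 0.22, adjusted p = 6.5e-06), while the debranching enzyme LDA was not called (0.41, adjusted p = 0.061). BAM3, the main beta-amylase of leaf chloroplasts, was lower instead, at 12238, 16371 and 21787 unwounded and 5800.1, 5521 and 5802 at 6 h (log2 -1.52 ± 0.20, adjusted p = 1.9e-04). All 3 BAM3 signals at 6 h lay below the 6 others. BAM1, a plastid beta-amylase, fell by 1.32 ± 0.20, and BAM9, a member of the same family, by 3.07 ± 0.22 on the log2 scale. BAM5, which lies outside the plastid, rose by 1.59 ± 0.39, from an uneven 2038, 6104 and 8716 unwounded to 12004, 16822 and 14738 at 6 h, a call lost without the 6 h array B.

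Products of breakdown are passed on as maltose and glucose. MEX1, the maltose exporter of the chloroplast envelope, rose by 0.91 ± 0.15. DPE2, the cytosolic enzyme that takes maltose on, rose from 735, 729 and 732 to 3598, 5494 and 4579 (log2 2.62 ± 0.19, adjusted p = 2.1e-06), and DPE1, its plastid counterpart, from 72.2, 102 and 85.7 to 1056, 1064 and 1107 (log2 3.65 ± 0.23, adjusted p = 8.2e-07, with 1 of the 3 unwounded arrays under the 40th percentile). PHS2, the cytosolic glucan phosphorylase, rose from 475, 306 and 577 unwounded and 316, 263 and 278 at 1 h to 8007, 7134 and 6342 at 6 h (16.3-fold, log2 4.03 ± 0.20, adjusted p = 1.8e-07). The plastid phosphorylase PHS1 rose by 3.18 ± 0.13. At 6 h both phosphorylases were above all 6 other arrays. Of the 17, 14 were called higher and 3 lower than at 1 h, and the fit to all 18 arrays called 9 higher and 3 lower than unwounded.

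Of 14 genes of starch synthesis 5 rose and 1 fell, with a median log2 change of 0.28. The one that fell was GBSS1, the granule-bound synthase that makes amylose, at 13596, 14241 and 17664 unwounded and 1994, 1478 and 2262 at 6 h (8.01-fold lower, adjusted p = 4.9e-07). SS4, which starts new granules, rose by 1.77 ± 0.15, the branching enzyme SBE2.1 by 1.17 ± 0.25 and phosphoglucomutase PGM by 0.94 ± 0.16. The small and large subunits of ADP-glucose pyrophosphorylase that lead in leaves, ADG1 and APL1, were not called (-0.15 and 0.01).

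**Figure D4:**
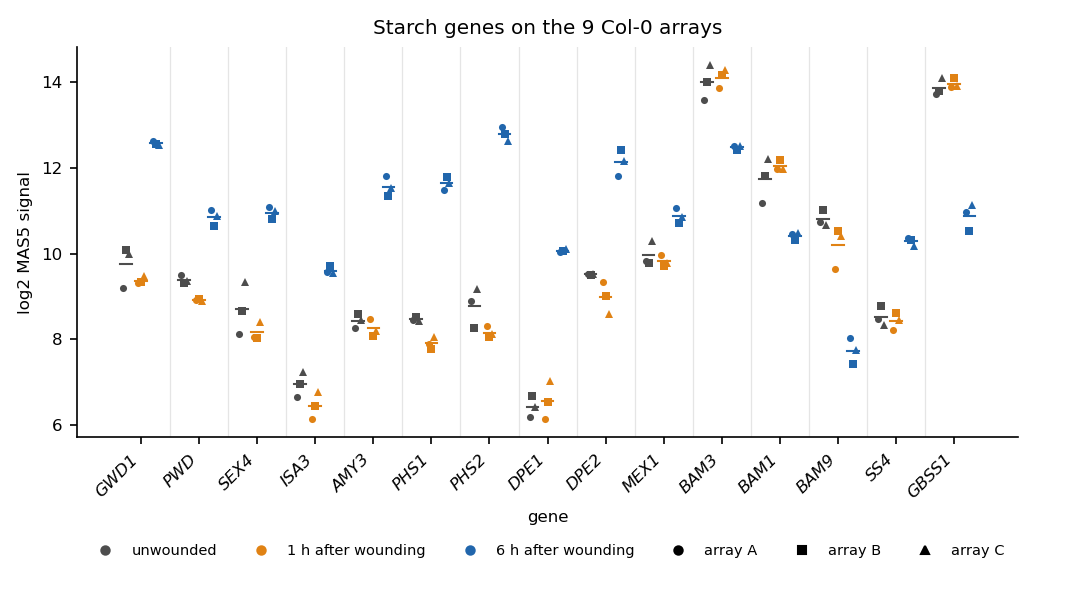
Signals of 13 genes of starch breakdown and of SS4 and GBSS1 of starch synthesis (log2 MAS5 signal, vertical axis) on the 9 Col-0 arrays, coloured by group, with the letter of the array as the symbol and group means as bars. The 3 arrays at 6 h lie above all others for GWD1 to MEX1 and SS4, and below them for BAM3, BAM1, BAM9 and GBSS1.

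Genes that rise when leaves are short of sugar were higher, on unwounded arrays that disagreed. Of 16 genes 8 rose and 1 fell, with a median log2 change of 1.17. DIN10, a raffinose synthase-like dark-inducible gene, read 2114, 565 and 209 on unwounded arrays A, B and C, 656, 611 and 745 at 1 h and 3129, 4172 and 2666 at 6 h (log2 2.38 ± 0.58, adjusted p = 0.013). Unwounded array A lay close to the 6 h arrays and arrays B and C well below it. SEN1, another dark-inducible gene, rose from 625, 328 and 199 to 1675, 2695 and 1405 (log2 2.43 ± 0.37, adjusted p = 6.0e-04). The asparagine synthetase ASN1 and the transcription factor bZIP1, both sugar-repressed, rose by 1.74 ± 0.50 and 1.76 ± 0.48, and unwounded array A was again the highest of its group for each, while array C was under the 40th percentile. Both lost their calls without any 1 of the 6 h arrays or without the unwounded array B, ASN1 also without the unwounded array C, and DIN10 lost its call without the 6 h array B. TPS10, of the trehalose phosphate synthase family, had even unwounded signals (246, 279 and 199) and rose to 701, 1049 and 802 (log2 1.81 ± 0.21, adjusted p = 8.7e-05). DIN9, a mannose phosphate isomerase, fell (log2 -1.43 ± 0.16, adjusted p = 7.3e-05). The count of 8 higher was 3 without the 6 h array B, 4 without the 6 h array C or the unwounded array B, 5 without the 6 h array A or the unwounded array C, 3 without the variance trend and 3 in the fit to all 18 arrays.

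Autophagy genes, whose products enclose cytoplasm for recycling, rose in 10 of 18 cases and fell in none, by modest amounts (median log2 0.59). ATG8F, one of the ubiquitin-like proteins that coat the autophagosome, read 4290.2, 2711 and 2818 unwounded and 7538, 7720.5 and 6357 at 6 h (log2 1.17 ± 0.17, adjusted p = 3.8e-04). Of the ATG8 genes, ATG8G, ATG8D, ATG8I and ATG8A rose by 1.05 ± 0.21, 1.03 ± 0.19, 0.71 ± 0.12 and 0.62 ± 0.14, and ATG8B was not called (0.22). ATG8C and ATG8H were called higher too (0.42 and 0.56). The ATG8C call was lost without any 1 of the unwounded arrays, the 1 h array C or the 6 h arrays A or B. The ATG8H call was lost without any 1 of the arrays other than the unwounded array A. After subtraction of array medians 8 of the 18 were called higher. The conjugating enzyme ATG3 and the kinase complex subunit ATG13 rose by 0.82 ± 0.13 and 0.85 ± 0.17, as did the cargo receptor NBR1 by 0.69 ± 0.15. ATG5, ATG6 and ATG7 were not called (0.12, 0.03 and 0.01). In the fit to all 18 arrays 2 of the 18 were called higher.

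Enzymes that burn amino acids rose in 6 of 11 cases and fell in none (median log2 0.82). LKR, the first enzyme of lysine breakdown, rose from 209.6, 148 and 109 to 569.8, 787 and 449 (log2 1.96 ± 0.25, adjusted p = 1.8e-04). IVD and the 2 subunits MCCA and MCCB, which act on leucine, rose by 1.27 ± 0.17, 0.72 ± 0.16 and 0.82 ± 0.16. HGO, of tyrosine breakdown, rose by 1.25 ± 0.17 and BCE2, a subunit of the branched-chain dehydrogenase, by 1.24 ± 0.22. ERD5, the proline dehydrogenase, was not called (-1.16, adjusted p = 0.052), with 1111, 493 and 296 in unwounded leaves. Unwounded array A was the highest of its group for 9 of the 11 genes. The fit to all 18 arrays called 3 of the 11 higher.

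Chlorophyll genes changed at single steps. Of 16 genes of chlorophyll synthesis 4 rose and none fell (median log2 0.12). Among these 4 were all 3 protochlorophyllide oxidoreductases, the light-dependent step. PORB read 500.1, 462 and 261 in unwounded leaves, 325, 269.7 and 246 at 1 h and 11050, 11560 and 12028 at 6 h, a 29.4-fold rise (log2 4.88 ± 0.21, adjusted p = 6.0e-08). PORA was at least 2.79-fold higher (adjusted p = 0.0094) and PORC rose by 0.60 ± 0.13. Unwounded array A was the highest of its group for 13 of the 16 genes. Of 8 genes of chlorophyll breakdown 3 rose and 2 fell. NYC1, the chlorophyll b reductase, rose from 1337, 1362 and 1325 to 3556, 3608 and 3394 (log2 1.39 ± 0.14, adjusted p = 2.7e-05), and PAO and ACD2, which open and reduce the ring, by 0.65 ± 0.16 and 0.55 ± 0.10. SGR1, which removes the magnesium, fell (log2 -0.92 ± 0.17, adjusted p = 0.0022), and CLH1, a chlorophyllase, changed by -0.73 ± 0.22. The PAO call was lost without the 6 h arrays A or B, and the CLH1 call without the unwounded, 1 h or 6 h arrays B or C, taken 1 at a time.

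Of 8 lipid transfer protein genes, for small secreted proteins that bind lipids, 5 rose and none fell (median log2 1.71, or 1.17 with dim genes at their bounds). LTP4 read 117, 15.3 and 28.7 in unwounded leaves, 43.9, 118 and 94.1 at 1 h and 2526, 2807 and 3257 at 6 h (adjusted p = 1.6e-05). Unwounded arrays B and C were under the 40th percentile for LTP4, so the size of its rise is not resolved. LTP3 rose from 156, 230.4 and 393 to 4563, 4899 and 6918 (log2 4.47 ± 0.36, adjusted p = 6.5e-06) and LTP2 from 609, 459.9 and 616 to 7014, 5044 and 6636 (log2 3.47 ± 0.18, adjusted p = 2.3e-07). LTP1 and LTP5 were bright throughout and not called (0.33 and 0.25). Of 15 wax genes 2 rose and 6 fell. Epidermal cells make the wax, and the summed signal of 6 epidermal and trichome markers was 2446 to 2810 unwounded and 1594 to 2099 at 6 h, with 3 of the 6 dim in both groups. The part of these markers in the lipid transfer and wax results was not tested. CER1, of alkane formation, rose from 116, 83.0 and 83.7 to 478, 552 and 568 (log2 2.51 ± 0.36, adjusted p = 4.1e-04). DEWAX, a repressor of wax genes, rose by 2.37 ± 0.70 from unwounded signals of 1305, 247 and 80.3, and the call was lost without any 1 of the 6 h arrays, the unwounded arrays B or C, or the 1 h array C. The elongase KCS1, its helper CER2 and the activator MYB96 changed by -1.26 ± 0.15, -1.14 ± 0.21 and -0.93 ± 0.19.

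Jasmonate genes moved in both directions. Of 12 synthesis genes 3 rose and 6 fell, with a median log2 change of -0.66. LOX4, a lipoxygenase, read 2742, 4058 and 4084 unwounded, 11215, 10341 and 6611 at 1 h and 404, 331 and 303 at 6 h. Its 3 groups did not overlap, with 1 h above unwounded (log2 1.36 ± 0.21, adjusted p = 0.004) and 6 h below it (log2 -3.38 ± 0.21, adjusted p = 7.5e-07). LOX3 and the cyclase AOC3 followed the same course, with 6 h changes of -2.19 ± 0.21 and -2.53 ± 0.24 and with LOX3 higher by 0.99 ± 0.21 at 1 h. OPR3, the reductase of the pathway, and JAR1, which joins jasmonate to isoleucine, fell by 1.19 ± 0.16 and 1.76 ± 0.21 on the log2 scale. By contrast LOX2, the chloroplast lipoxygenase, rose from 18753, 19720 and 25019 to 40386, 32645 and 33023 (log2 0.74 ± 0.18, adjusted p = 0.012), AOC4 by 1.02 ± 0.20 and LOX6 by 0.59 ± 0.14. Without the 6 h array A the calls of LOX2 and LOX6 were lost, and the fit to all 18 arrays called 1 of the 12 genes lower. AOS, the allene oxide synthase, was not called (adjusted p = 0.99). Unwounded array C was the highest of its group for 11 of the 12 genes.

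Of 10 JAZ repressors 9 fell and none rose (median log2 -1.38), and all 10 were lower than at 1 h (median -2.23). JAZ7 read 846, 936 and 1183 unwounded, 2748, 2489.8 and 1659 at 1 h and 156, 100.4 and 112 at 6 h (log2 -3.02 ± 0.21, adjusted p = 2.0e-06). JAZ10 read 2473, 2921 and 3808 unwounded, 6359, 4339 and 4469.9 at 1 h and 1222, 833 and 975 at 6 h (log2 -1.60 ± 0.20, adjusted p = 1.3e-04). In both genes the 6 h arrays were the lowest and the 1 h arrays the highest of the 9, and unwounded array C was the highest of its group. JAZ5, JAZ6, JAZ2 and JAZ8 changed by -2.28 ± 0.26, -1.83 ± 0.22, -1.44 ± 0.21 and -1.32 ± 0.20. The one not called was JAZ9 (-0.38, adjusted p = 0.3). JAZ12 (log2 -0.66) lost its call after quantile normalization and without any 1 of the 6 h arrays or of the unwounded or 1 h arrays B and C. The JAZ3 call was lost without the unwounded array B or the 6 h array A, and the JAZ1 call without the 6 h array B. The fit to all 18 arrays called 4 of the 10 lower.

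Of 6 genes that conjugate or break down jasmonates, 4 fell and 1 rose. CYP94B1, which oxidises the active conjugate, read 1152, 1242 and 1912 unwounded, 3778, 3902 and 3191 at 1 h and 234, 134 and 122 at 6 h (log2 -3.16 ± 0.24, adjusted p = 3.5e-06). CYP94C1, which oxidises it further, changed by -2.75 ± 0.18, and by -4.21 ± 0.18 against 1 h. The 3 groups of CYP94B1 did not overlap, with 1 h the highest. The methyltransferase JMT and the hydrolase ILL6 changed by -1.07 ± 0.25 and -1.01 ± 0.17. ST2A, a sulfotransferase of hydroxyjasmonate, went the other way, from 229, 433 and 544 unwounded and 504, 219.7 and 296 at 1 h to 4601, 5766 and 4786 at 6 h (log2 3.73 ± 0.31, adjusted p = 8.2e-06). Every 6 h array of ST2A was above the other 6. Unwounded array C was the highest of its group for all 6 genes. None of the 6 genes that conjugate or break down jasmonates kept a call as lower in the fit to all 18 arrays, where 1 was called higher.

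Jasmonate-responsive defence genes rose in 6 of 11 cases and fell in 3 (median log2 1.14). RNS1, a secreted ribonuclease, read 306, 814 and 1140.1 unwounded, 1648, 697 and 1039 at 1 h and 6189, 5731 and 5859 at 6 h (log2 3.17 ± 0.40, adjusted p = 1.5e-04). NATA1, which acetylates ornithine, rose from 2650.5, 1791 and 2248 to 14679, 14973 and 13918 (log2 2.72 ± 0.23, adjusted p = 9.6e-06). The storage protein gene VSP1, on probes shared with a close copy, rose from 5376, 3204 and 6913 to 29220, 23279 and 24852 (log2 2.38 ± 0.27, adjusted p = 6.7e-05). The lectin gene JAL35 and the cystine lyase CORI3 rose by 1.33 ± 0.25 and 1.14 ± 0.20. TPS04, a terpene synthase of indirect defence, fell from 1789.5, 1693 and 1969 to 309, 241 and 134 (log2 -3.08 ± 0.28, adjusted p = 1.6e-05). TAT3, a tyrosine aminotransferase, and MYC2, the master factor of the response, changed by -1.52 ± 0.28 and -0.63 ± 0.19. The MYC2 call (adjusted p = 0.043) was lost when any 1 of the 9 arrays other than the unwounded array A was left out. PDF1.2, a defensin, and THI2.1, a thionin, were not called, and THI2.1 read 503, 67.1 and 148 at 6 h. Unwounded array C was the highest of its group for 8 of the 11 genes.

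**Figure D5:**
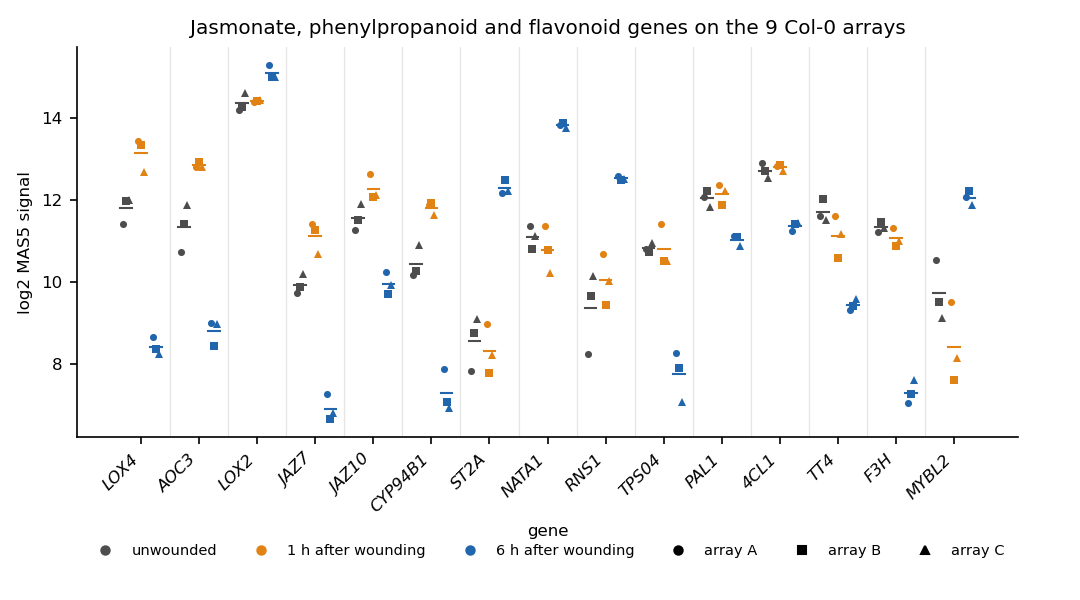
Signals of 10 jasmonate genes and 5 phenylpropanoid and flavonoid genes (log2 MAS5 signal, vertical axis) on the 9 Col-0 arrays, coloured by group, with the letter of the array as the symbol and group means as bars. LOX4, AOC3, JAZ7, JAZ10 and CYP94B1 are highest at 1 h and lowest at 6 h, LOX2, ST2A, NATA1, RNS1 and MYBL2 are highest at 6 h, and TPS04, PAL1, 4CL1, TT4 and F3H are lowest at 6 h.

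The phenylpropanoid pathway, which leads from phenylalanine to lignin and flavonoids, was lower at its entry and in the lignin branch. Of 17 genes 12 fell and none rose (median log2 -0.91). PAL1, a phenylalanine ammonia-lyase, read 4318, 4808 and 3649 unwounded and 2239.9, 2204 and 1876 at 6 h (log2 -1.01 ± 0.15, adjusted p = 5.5e-04), and PAL2 fell by 1.33 ± 0.16 on the log2 scale. C4H, the hydroxylase that follows, changed by -1.10 ± 0.11. The ligase 4CL1 read 7609, 6679.7 and 5975 unwounded and 2418, 2719 and 2766 at 6 h (log2 -1.35 ± 0.12, adjusted p = 1.5e-05), and its relatives 4CL3 and 4CL5 changed by -2.29 ± 0.31 and -1.93 ± 0.17, with 4CL3 under the 40th percentile on 1 of the 3 arrays at 6 h. Of the lignin steps CAD4, CCR2 and HCT changed by -1.45 ± 0.13, -1.35 ± 0.30 and -0.91 ± 0.13. The groups of PAL1, C4H and 4CL1 did not overlap. The fit to all 18 arrays called 5 of the 17 lower.

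Early flavonoid enzymes fell. Of 21 genes 7 fell and 1 rose (median log2 -0.51, or -0.03 with dim genes at their bounds and without those dim in both groups). The chalcone synthase TT4 fell from 3108, 4146 and 2939.7 to 641, 687 and 766 (log2 -2.27 ± 0.22, adjusted p = 2.0e-05). F3H, flavanone hydroxylase, read 2371, 2827 and 2560.3 unwounded, 2566, 1882 and 2043 at 1 h and 132, 153 and 195 at 6 h (16.4-fold, log2 -4.03 ± 0.16, adjusted p = 3.5e-08). CHIL, which helps chalcone synthase, changed by -3.96 ± 0.45, with 1 of the 3 arrays at 6 h under the 40th percentile, the isomerase TT5 by -1.58 ± 0.16 and the flavonol synthase FLS1 by -2.57 ± 0.31. The 6 h arrays of all 5 genes lay below every other array. The one that rose was MYBL2, a repressor of anthocyanin synthesis, at 1498, 737 and 557 unwounded and 4350.5, 4747 and 3777 at 6 h (log2 2.33 ± 0.42, adjusted p = 0.0021). DFR, which turns the pathway to anthocyanin, was not called (adjusted p = 1), nor was PAP1, an activator of anthocyanin synthesis, with 421, 951 and 2073 on unwounded arrays A, B and C.

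Cold and dehydration genes moved in both directions, 6 higher and 3 lower of 17. CBF3, a cold-response activator, rose from 37.1, 42.7 and 74.2 to 503, 485 and 716 (adjusted p = 1.4e-05), with unwounded arrays A and B under the 40th percentile, while CBF1 and CBF2 were not called. COR15B, a chloroplast protective protein, rose from 200.1, 658 and 1069.8 to 3943, 2542 and 3349 (log2 2.63 ± 0.46, adjusted p = 0.0017). COR15A read 2769, 9267 and 18285 on unwounded arrays A, B and C, all below the 6 h arrays at 33235, 19039 and 26085 (log2 1.71 ± 0.49, adjusted p = 0.031), and the call was lost without the 6 h arrays A or C or the unwounded array B. It was not called against 1 h (adjusted p = 0.082). GolS2, a galactinol synthase, read 299.8, 1062 and 3332 in unwounded leaves and 116, 59.3 and 78.0 at 6 h (adjusted p = 0.0017), where arrays B and C were under the 40th percentile. RD26, a NAC factor of dehydration and jasmonate responses, fell from 6462, 10442 and 13320 to 1755, 1606 and 1672 (log2 -2.53 ± 0.21, adjusted p = 8.0e-06), and the dehydrin ERD10 by 1.25 ± 0.28. Unwounded array A was the lowest of its group for each of COR15A, COR15B, GolS2, RD26 and ERD10. Without unwounded array A, 6 of the 17 were lower in place of 3. Without the variance trend 2 were higher in place of 6, and in the fit to all 18 arrays 1.

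Hormone genes other than those of jasmonate gave mixed counts. Of 18 gibberellin genes 2 rose and 5 fell. The receptor GID1A rose from 179.6, 160.1 and 228 to 976, 1119 and 850.1 (log2 2.38 ± 0.19, adjusted p = 5.5e-06) and GID1C from 41.3, 46.8 and 74.7 to 116, 180.0 and 166 (adjusted p = 0.011), with unwounded arrays A and B under the 40th percentile, a call lost without the 6 h array B. RGL2 and RGL3, repressors of the DELLA family that the receptors act on, were lower, RGL2 (adjusted p = 0.004) with 2 of the 3 arrays at 6 h under the 40th percentile and RGL3 by a log2 change of -1.49 ± 0.22, and GA2OX6, which inactivates gibberellin, changed by -1.72 ± 0.26, after 4265, 4098 and 4538 at 1 h. Of 15 brassinosteroid genes 3 rose, the synthesis genes CPD, DET2 and BR6OX2 (log2 1.11 ± 0.15, 0.91 ± 0.16 and 0.88 ± 0.24), and 1 fell, the response factor BZR1, on shared probes (log2 -1.15 ± 0.13, adjusted p = 7.1e-05). The BR6OX2 call was lost without the unwounded arrays B or C or the 6 h arrays A or C, whereas without unwounded array A 6 brassinosteroid genes were called higher. Of 15 cytokinin genes 7 fell and 1 rose (median log2 -0.52). ARR15, a negative regulator that cytokinin switches on, fell from 761, 612 and 437 to 193, 209 and 249.5 (log2 -1.45 ± 0.22, adjusted p = 6.9e-04), and CKX5, which degrades cytokinin, changed by -1.38 ± 0.25. Of the 7 that fell, 4 were called without the variance trend and 0 in the fit to all 18 arrays.

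Among nutrient genes, 6 of 15 iron genes fell and 1 rose (median log2 -0.61). BHLH39, a factor of the iron deficiency response, read 459, 319 and 257 unwounded and 43.6, 17.3 and 51.9 at 6 h, where it was dim, at least 4.19-fold lower (adjusted p = 7.1e-04). OPT3, a phloem iron transporter, fell from 1814, 2323 and 1968 to 937, 751 and 764 (log2 -1.32 ± 0.26, adjusted p = 0.0038). The metal reductase FRO3 and the regulator PYE changed by -1.21 ± 0.28 and -1.27 ± 0.37, and the PYE call was lost without any 1 of the 6 h arrays or of the unwounded arrays B and C. NAS3, a nicotianamine synthase, rose by 1.40 ± 0.22. The iron count of 6 lower was 3 without the unwounded array B or the 6 h arrays B or C, and 2 without the variance trend. Of 22 nitrogen and sulfur genes 6 fell and 1 rose. The nitrate reductase NIA2 and the nitrite reductase NIR1 changed by -0.66 ± 0.18 and -0.66 ± 0.16, and the cytosolic glutamine synthetase GLN1;1 by 0.81 ± 0.15. NIA2 lost its call without the unwounded arrays A or B or the 6 h arrays A or C, and NIR1 without the unwounded array B or the 6 h arrays A or B. Those 6 lower calls were 2 without the 6 h array A, 3 without the 6 h arrays B or C or the unwounded array B, 1 without the variance trend and 0 in the fit to all 18 arrays.

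Of 13 expansins, which loosen cell walls, 1 rose and 2 fell, and of 13 cell division genes 1 rose and none fell. The expansin that rose, EXPA8, read 1157, 315 and 144 unwounded and 959, 1364 and 1346 at 6 h, so that the groups overlapped, and it lost its call without any 1 of the arrays other than the unwounded array A. PCNA1, a DNA replication clamp and the 1 cell division gene called (log2 0.66 ± 0.20), lost its call under both other scalings and without any 1 of the unwounded arrays, the 1 h array B or the 6 h arrays B and C.

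Probe sets were also named by rank, the 15 highest by fitted log2 change among those eligible. Against a dim group that rank is not a measured size. AT2G39920 read 25.5, 2.70 and 26.5 unwounded and 1461, 1768 and 1328 at 6 h, at least 19.4-fold higher (adjusted p = 2.9e-05). AT1G56300 read 40.2, 29.8 and 35.2 unwounded and 2658, 2528 and 1855 at 6 h, at least 29.9-fold higher (adjusted p = 1.4e-06). AT5G23240, listed in RefSeq as DJC76 of the DnaJ family, was at least 18.5-fold higher (adjusted p = 4.8e-05). These genes were dim in both unwounded leaves and leaves at 1 h. Given dim unwounded arrays, the naming rule itself required all 3 arrays at 6 h to be bright. AT3G62550 had the smallest SE of the 15 and rose from 237, 138 and 159 unwounded and 71.7, 74.6 and 89.7 at 1 h to 8584, 10370 and 7971 at 6 h (log2 5.69 ± 0.19, adjusted p = 1.4e-08). MEE14, whose name comes from an embryo arrest mutant, rose from 142, 70.6 and 39.8 to 4379.6, 5383 and 3004 (adjusted p = 9.9e-07), with unwounded arrays B and C under the 40th percentile. AT2G33830, listed in RefSeq as DRM2 and named for dormancy, rose by 4.48 ± 0.27, and the thioredoxin WCRKC1 by 4.41 ± 0.47, and for each the unwounded array C was under the 40th percentile. ABF1, a factor of abscisic acid responses, was at least 5.12-fold higher (adjusted p = 0.0018). AT1G09500 was at least 4.06-fold higher (adjusted p = 0.0014), and it was the only 1 of the 15 not called against 1 h (adjusted p = 0.051). The other 2 of the 15 not yet named, AT5G02860 and AT5G44570, were at least 1.85-fold and 3.39-fold higher.

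The 15 lowest by fitted log2 change were named in the same way, with the same limit where the 6 h arrays were dim. MYB47, a transcription factor of the MYB family, read 1159, 1326 and 1637 unwounded, 1753, 1155 and 1479 at 1 h and 31.5, 22.9 and 64.3 at 6 h, at least 17.0-fold lower (adjusted p = 5.7e-07). WRKY30, of a family of defence factors, read 127, 168 and 149.9 unwounded, 547, 748 and 658 at 1 h and 1.54, 9.82 and 6.21 at 6 h. Its 6 h arrays were dim, at least 1.84-fold below unwounded (adjusted p = 5.3e-05) and at least 8.07-fold below 1 h (adjusted p = 1.5e-06). The kinase MAPKKK19 was at least 5.11-fold lower (adjusted p = 1.3e-04). AT1G07500, listed in RefSeq as SMR5 and a member of a family of cell cycle inhibitors, was at least 5.19-fold lower (adjusted p = 6.3e-05), and AT1G26790 at least 1.51-fold. AO, the L-aspartate oxidase that begins NAD synthesis, fell from 1526, 2378 and 1718 to 198, 113 and 164 (log2 -3.58 ± 0.26, adjusted p = 2.3e-06). AT2G27420 changed by -3.47 ± 0.30.

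Among the brightest genes called, AT1G13930 rose from 5009.6, 4996 and 5642 to 26402, 22534 and 20186 (log2 2.14 ± 0.20, adjusted p = 2.0e-05). MAM1, of methionine-derived glucosinolate synthesis, rose by 1.23 ± 0.15 and AILP1 by 1.66 ± 0.20. VTC2, which commits sugar to ascorbate, fell from 18594, 18615 and 18476 to 9127, 6773 and 7551 (log2 -1.26 ± 0.15, adjusted p = 9.0e-05). The ferredoxin FD1 and the polyubiquitin gene UBQ11 changed by -1.19 ± 0.15 and -1.32 ± 0.15. Genes were eligible only where the unwounded and 6 h arrays did not overlap, so the lack of overlap in these 6 follows from the choice.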

How the data were processed

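Leaf RNA was hybridised to 1-colour Affymetrix ATH1 arrays, and only the deposited value table was used. Its values are MAS5 signal intensity on a linear scale, per the submitters' processing notes, with the version not given in the sources used here. Without the extreme 2% at either end each deposited intensity column averaged between 499.742 and 499.783, so the authors had scaled the arrays to a common mean. A further 90 columns, 18 sets of 5, were not used because their names state no sample. The authors' presence calls were not used.

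Samples were grouped by their titles. Signals were taken to log2 as deposited, with no filter and no further normalization. The 9 Col-0 arrays were fitted with limma 3.58.1 in R 4.3.3, each group having its own mean, with 6 residual degrees of freedom and variance moderation that followed a trend on mean signal. Tests were two-sided, and p-values were adjusted by Benjamini-Hochberg over 22746 probe sets in each of 3 comparisons. The 64 manufacturer's controls were left out, and 22091 probe sets had a locus in the RefSeq table of symbols. Probe sets with a name that marks shared probes are named as uncertain. A group was called dim where all its arrays lay under their 40th percentile. A fold against it is a lower bound, computed from that percentile, and none is given where both groups were dim. The number of arrays limits the precision. In data simulated for the 6 h against unwounded comparison over 22746 probe sets, with 100 changed by each size, 61% of log2 changes of 1 and 93% of changes of 2 were called, with 8 false calls. The changed probe sets were drawn from those with a mean signal above the average 40th percentile, so recovery of dimmer ones was not measured. Far fewer were changed than the 3851 called in the data, so the adjusted cut-off was not the same.

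The genes, lists and tests were chosen with earlier results of these data known. Of 448 list members 437 matched by locus and symbol. Named genes were the 15 highest and 15 lowest by log2 change among called probe sets of 1 gene that changed by at least 1 without overlap, and the 5 brightest in either direction, and from each list up to 6 called members with the largest change. Further list and family members named beside them, called or not, were chosen after their values had been seen. Families were drawn by symbol. Those of aquaporins and pentatricopeptide repeat proteins are left out because their patterns also took in unrelated genes. Other families were counted but are not described above. They were proteasome subunits (4 higher and none lower of 8), glutathione S-transferases (7 and 7 of 47) and UDP-glycosyltransferases (6 and 11 of 62). The rest were XTH cell wall enzymes (2 and 6 of 33), SAUR genes (1 and 6 of 58) and ribosomal proteins. Promoter motifs were not analysed here.

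Alternatives were filters at the 40th percentile on 3 arrays (14349 probe sets) and the 60th percentile of mean rank (9151), quantile normalization, subtraction of array medians, addition of 16 before log2, no variance trend, array weights, the replicate letter as a block, all 18 arrays, only the 6 arrays compared, and leaving out each array. Same-letter arrays of different groups did not deviate together (r of deviations from the group means -0.0742 to 0.101, against -0.185 to 0.162 for other letters), so the letters were not taken as pairs. Plots were made in Python 3.11.15 (matplotlib 3.10.9).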

Additional observations from a re-analysis of the deposited data

How the results depend on the processing

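The count for 6 h against unwounded leaves, 3851, was 1812 in the fit to all 18 arrays and 2597 to 4300 under the 9 other alternatives that kept all the arrays compared. Leaving out 1 array gave 2767 (6 h array B) to 3861 (unwounded array A). The 6 h against 1 h count of 5874 was 4592 to 6486 under the same settings and 4623 to 6262 when 1 array was left out. The 1 h against unwounded count of 699 was 130 without the variance trend and 3 in the fit to all 18 arrays, and ran from 301 (without the 1 h array B) to 902 (without the unwounded array C), with 426 without the 1 h array C. With the replicate letter as a block, the replicate block fit gave 3683, 5746 and 626 calls for these comparisons and 202 of the list members. Called list members, 207, were 104 in the fit to all 18 arrays and 171 to 218 when 1 array was left out. In the fit to all 18 arrays, genes called lower were 5 of 24 for light signalling and 2 of 18 for gibberellin, and genes called higher were 3 of 14 for starch synthesis, 2 of 16 for chlorophyll synthesis and 3 of 8 for lipid transfer proteins. In that fit 1 of 11 jasmonate defence genes was called lower. The filter at the 60th percentile left 3 genes of the list of evening clock genes and outputs called higher, since it removes dim genes. Brassinosteroid genes called higher were 5 with array weights or the 40th percentile filter. The causes of the other shifts were not tested. Of 413 called genes of the lists and families or among the named genes, 197 stayed called under all 19 alternatives that tested them and 298 under all but the fit to all 18 arrays, which ended 194 calls. Omission of the variance trend ended 101 calls, and no called gene changed sign. Across all probe sets the median log2 change was 0.01, 0.13 and -0.10 for 6 h against unwounded, 6 h against 1 h and 1 h against unwounded as deposited, and -0.06, -0.07 and 0.01 after median subtraction. Dim probe sets carry bounds only, and wounding and elapsed time cannot be told apart.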

Other observations

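Among families of regulators that the lists do not cover, WRKY, ERF and NAC genes had more lower than higher calls. Of 62 WRKY genes, for factors of defence and ageing, 4 rose and 11 fell. WRKY40, a repressor of defence genes, read 1110, 1481 and 1429.5 on unwounded arrays A, B and C, 4232, 5298 and 4026 at 1 h and 293, 191 and 246 at 6 h (log2 -2.47 ± 0.17, adjusted p = 1.9e-06 against unwounded). WRKY54 rose from 194, 118 and 298 to 1079.8, 1070 and 555 (log2 2.19 ± 0.40, adjusted p = 0.0021). Without the 6 h arrays A or B, 2 WRKY genes were called higher in place of 4, and in the fit to all 18 arrays 2 were higher and 4 lower. Of 26 ERF genes, for ethylene response factors, 8 fell and 1 rose, with a median log2 change of -0.55. ERF2 fell from 629, 592 and 892 to 149.5, 145 and 97.8 (log2 -2.43 ± 0.19, adjusted p = 6.0e-06) and ERF-1 changed by -2.14 ± 0.23. Unwounded array C was the highest of its group for 16 of the 26, and the fit to all 18 arrays called 4 lower. Of 90 NAC genes 3 rose and 11 fell. ATAF1 and NAC032, both stress-responsive NAC factors, changed by -2.14 ± 0.22 and -1.97 ± 0.28 at 6 h and by 1.07 ± 0.22 and 1.37 ± 0.28 at 1 h. Dim in both groups were 20 WRKY, 3 ERF and 49 NAC genes. Among all genes 9.01% were called higher and 8.02% lower.

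Of 14 calmodulin-like genes 4 fell and none rose. TCH3, a calcium sensor that touch induces, fell from 9552, 7906 and 8967 to 2212, 1829.6 and 1659 (log2 -2.22 ± 0.15, adjusted p = 1.1e-06). Of 41 cysteine-rich receptor-like kinases 13 fell and 4 rose. CRK14 changed by -2.36 ± 0.16 and CRK13 read 80.8, 60.3 and 73.4 unwounded, with arrays A and B under the 40th percentile, and 324, 213 and 260.1 at 6 h (adjusted p = 5.1e-04). Of 31 Aux/IAA genes, for repressors of auxin responses, 7 fell and none rose, and IAA6 was lower (adjusted p = 7.7e-04), with 2 of the 3 arrays at 6 h under the 40th percentile. Heat shock genes split, with 3 higher and 7 lower of 22. HSP70 (AT3G12580), a chaperone, fell from 762, 1528 and 3446 to 285, 342 and 382 (log2 -2.25 ± 0.38, adjusted p = 0.0013), and HSP81-2, of the HSP90 family, changed by -1.86 ± 0.22. HSP17.4, a small chaperone, was dim in unwounded leaves and read 79.3, 124 and 119 at 1 h and 105, 219.8 and 189.6 at 6 h (adjusted p = 8.9e-04). Of 28 photosystem subunits 2 rose and none fell, and of 16 light-harvesting genes 1 rose and 1 fell. These shares were below those of all genes, 9.01% higher and 8.02% lower. Neither photosystem call was kept after subtraction of array medians. LHCB2.3, the light-harvesting gene that rose, lost its call without any 1 of the 6 h arrays or of the unwounded arrays B and C. Of 217 cytochrome P450 genes 20 rose and 19 fell (9.22% and 8.76%), near the shares of all genes, while 109 were dim in both groups. With the filter at the 40th percentile 25 of 102 P450 genes were higher and 20 lower. Of all 14349 probe sets that passed this filter, 2277 were higher and 2023 lower. CYP81F4, of indole glucosinolate synthesis, changed by 2.24 ± 0.52, a call lost without the 6 h array A.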
